A study of Homo sapiens with 3 samples.

Results

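The IL-6 family cytokines, their receptors and STAT3 were examined after depletion of RBCK1 in Caki-1, an established cell line from human clear cell renal carcinoma. The set comprised 9 genes of the 44591 in the deposited table. These were the ligands IL6, IL11 and LIF, the receptor chains IL6R, IL6ST, OSMR and LIFR, the transcription factor STAT3 and its inhibitor SOCS3. The genes were taken by name from the table, and the set was chosen from the levels of these genes in the same 3 libraries. Their levels and ratios are therefore given as a description, with no test.

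RNA was collected 48 h after transfection with a non-targeting siRNA (si-Control) or 1 of 2 RBCK1 siRNAs, called si-RBCK1 #1 and si-RBCK1 #2 here and si-HOIL-1 in the sample labels. Each condition had 1 library, so the values have no replicate check. The siRNAs are different reagents set against the same control library, and they were not averaged. Levels are RPKM, reads scaled to the length of the gene and the depth of the library, as the authors deposited them. A log2 ratio is the difference of log2(RPKM + 1) between a si-RBCK1 library and si-Control, a scale that understates changes of low genes. Counting intervals (95%) on the reads recovered from RPKM cover counting error at most. PCR reads without molecular identifiers are not independent molecules, so the intervals may be too narrow even for that. The intervals say nothing about variation between cultures.

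Cytokines of the IL-6 family share the signalling chain gp130, encoded by IL6ST. IL-6 and IL-11 first bind their own receptors, IL6R and IL11RA, whereas LIF pairs gp130 with LIFR and oncostatin M pairs it with OSMR or LIFR. The assembled receptor activates JAK kinases, which phosphorylate STAT3. STAT3 then enters the nucleus and activates genes that include SOCS3, whose product binds gp130 and JAK and limits the signal. Renal carcinoma cells are known to secrete IL-6. The IL6 gene is a classical target of NF-kB, a pathway in which RBCK1, also called HOIL-1, takes part as a subunit of the linear ubiquitin ligase complex.

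The sense strands of the siRNAs, taken from the study's supplement, are shown because each difference below is tied to 1 of these reagents. Capitals mark the bases that pair with guide positions 2 to 8, the seed.
si-RBCK1 #1: ggtgcaccttcATCAACAa
si-RBCK1 #2: ggattaccagcGATTTCTa
Both match coding exons of RBCK1 in full. Neither had a full match in the longest protein-coding transcript of another gene, and other transcripts were not searched. The site of si-RBCK1 #1 lies at chr20:419577-419595 in exon 6 and that of si-RBCK1 #2 at chr20:427327-427345 in exon 9 (GRCh38, longest protein-coding transcript of GENCODE v29). RBCK1 itself had 33.3 RPKM in si-Control, 9.97 RPKM after si-RBCK1 #1 and 12.3 RPKM after si-RBCK1 #2, which is 29.9% and 36.8% of the control level. Seed matches of si-RBCK1 #1 (ATCAACA, present in 22.3% of 19669 protein-coding genes' longest transcripts) were found in IL11, OSMR and LIFR. Those of si-RBCK1 #2 (GATTTCT, 25.9% of genes) were found in LIF, IL6ST and LIFR. The matches in IL11, OSMR, LIF and IL6ST lay after the coding sequence, and those in LIFR did not. Neither stretch of letters occurred in the transcripts of IL6, IL6R, STAT3 or SOCS3. A match of this kind is a description of the letters, and whether it had a part in any difference was not tested.

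The promoters of IL6 and IL11 are shown as the 250 bases before the RefSeq start site (GRCh38.p14), because these were the members with the lowest and the second lowest log2 ratio in si-RBCK1 #1. Capitals mark matches to the letters searched on both strands.
IL6 (chr7:22726950-22727199, plus strand): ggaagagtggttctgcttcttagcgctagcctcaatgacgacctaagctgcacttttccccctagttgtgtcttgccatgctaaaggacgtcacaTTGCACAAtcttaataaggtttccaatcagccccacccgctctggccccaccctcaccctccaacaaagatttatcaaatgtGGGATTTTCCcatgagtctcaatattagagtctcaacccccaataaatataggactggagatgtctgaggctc
IL11 (chr19:55370464-55370713, minus strand): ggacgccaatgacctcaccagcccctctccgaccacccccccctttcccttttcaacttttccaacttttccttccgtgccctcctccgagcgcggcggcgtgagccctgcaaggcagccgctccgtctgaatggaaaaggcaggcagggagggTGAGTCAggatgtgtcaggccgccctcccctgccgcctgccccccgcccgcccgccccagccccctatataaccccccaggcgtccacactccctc
The IL6 promoter held an NF-kB motif (GGGA, any base, then TTTCC), whose first base lay at -73, and a C/EBP motif (TTGCNNAA) at -155. The NF-kB letters occurred in 0.527% and the C/EBP letters in 9.05% of 35116 promoters of the same length. The IL11 promoter held neither, and held an AP-1 motif (TGANTCA, 6.57% of promoters) at -96. RefSeq promoters were matched for 8 of the 9 genes, with 11 promoters in all. C/EBP letters were also present before OSMR at -73 and before 1 LIFR start site at -31. The STAT letters (TTCNNNGAA, 6.57% of promoters) were present before 2 of the LIFR start sites. None of these motifs was found in these windows of IL6R, IL6ST, STAT3 or SOCS3, which says only that the letters are not there.

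Among the ligands, IL6 was the most abundant transcript in every library. Its level was listed as 805 RPKM in si-Control, 204 RPKM after si-RBCK1 #1 and 163 RPKM after si-RBCK1 #2. These values give log2 ratios of -1.98 and -2.30. IL6 ranked 59 among all genes in si-Control and 306 after si-RBCK1 #2.

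The listed IL6 values carry a caution. They do not give the fold change that the table holds for the same gene, from which they differ by -0.63 on the log2 scale. At the gene length of 1189 nt behind these values, the levels correspond to 35361 reads in si-Control and 7037 reads after si-RBCK1 #2, but to 9799.67 reads after si-RBCK1 #1, which is not a whole number. When the control value and the decimals of the si-RBCK1 #1 value were kept, a single solution gave whole reads in every library and the fold change of the row. It puts IL6 at 404 RPKM (19417 reads) after si-RBCK1 #1 and leaves the other libraries as listed. With this implied value the log2 ratio of si-RBCK1 #1 was -0.99 in place of -1.98, and IL6 was at 50.1% of control in place of 25.3%. The log2 ratio of si-RBCK1 #2 stayed at -2.30, and the RPKM level at 20.2% of control. IL6 was thus lower than si-Control with both siRNAs whichever value is used. On implied values, the ratio of si-RBCK1 #1 exceeded that of si-RBCK1 #2 by 1.31 on the log2 scale of reads (counting interval 1.27 to 1.35). How the listed value arose was not tested. Of 11791 genes that could be checked in this way, 16 did not give their own fold change, and IL6 was the 1 member among them.

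IL11, checked in the same way, gave its own fold change, as did the other members, with a largest difference of 8.36e-10. It was the least abundant of the ligands, at 6.82 RPKM in si-Control, 3.90 RPKM after si-RBCK1 #1 and 3.48 RPKM after si-RBCK1 #2. These levels rest on 599, 375 and 301 reads. The log2 ratios, with 1 RPKM added, were -0.67 and -0.80. The RPKM levels themselves were 57.2% and 51.1% of control. On reads with no pseudocount the log2 ratios were -0.81 (counting interval -0.997 to -0.618) and -0.97 (-1.17 to -0.77). The siRNAs differed by 0.16 for IL11, with a counting interval of -0.06 to 0.39 that includes 0.

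LIF, which maintains stem cells and is secreted by many carcinomas, had 123 RPKM in si-Control, 95.9 RPKM after si-RBCK1 #1 and 63.2 RPKM after si-RBCK1 #2. Its log2 ratios were -0.35 and -0.95, so that the lower level came after si-RBCK1 #2, as for IL6. The difference between the siRNAs was 0.60 on reads (0.56 to 0.64). All ligands were below si-Control in both si-RBCK1 libraries, but not in proportion. The ratio of the IL6 level to the LIF level was 6.57 in si-Control, 2.13 after si-RBCK1 #1 (4.21 on the implied value) and 2.58 after si-RBCK1 #2. The ratio of LIF to IL11 was 17.98, 24.58 and 18.15 in the same order.

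**Figure D1:**
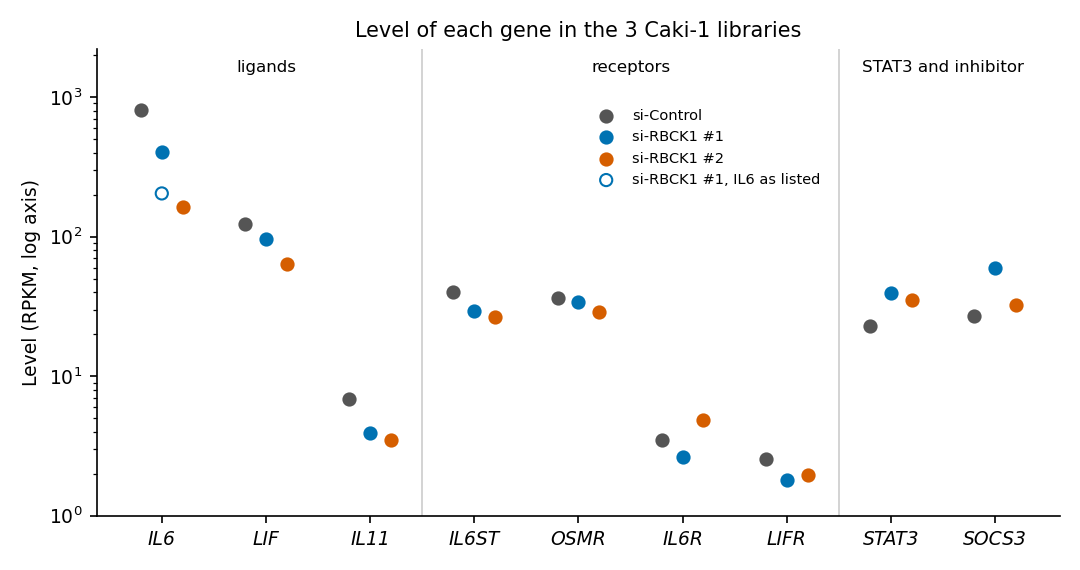
Level in RPKM (log axis) of the 9 genes in the si-Control, si-RBCK1 #1 and si-RBCK1 #2 libraries, 1 point per library. The filled IL6 point of si-RBCK1 #1 is the implied 404 RPKM and the open point the listed 204 RPKM, and both lie below the 805 RPKM of si-Control.

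The receptor chains divided into an abundant and a scarce pair. IL6ST, the shared chain gp130, had 40.1 RPKM in si-Control, 29.2 RPKM after si-RBCK1 #1 and 26.6 RPKM after si-RBCK1 #2. Its log2 ratios of -0.44 and -0.57 were close to each other, with a difference of 0.13 on reads (0.09 to 0.18). OSMR, the oncostatin M receptor, had 36.04 RPKM in si-Control, 33.8 RPKM after si-RBCK1 #1 and 28.98 RPKM after si-RBCK1 #2, with log2 ratios of -0.09 and -0.31. IL6ST was the higher of these chains in si-Control, where its level was 1.11 times that of OSMR, and the lower in both si-RBCK1 libraries, at 0.865 and 0.919 times the OSMR level.

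The scarce chains were LIFR and IL6R. LIFR had 2.53 RPKM in si-Control, 1.80 RPKM after si-RBCK1 #1 and 1.97 RPKM after si-RBCK1 #2, with log2 ratios of -0.33 and -0.25. The interval of the difference between the siRNAs on reads was -0.27 to 0.02 for LIFR. IL6R, which confers binding of IL-6, was the only member on opposite sides of si-Control. It had 3.47 RPKM in si-Control, 2.65 RPKM after si-RBCK1 #1 and 4.83 RPKM after si-RBCK1 #2, from 842, 703 and 1153 reads. The log2 ratios were -0.29 and 0.38, and on reads the difference between the siRNAs was -0.87 (counting interval -1.01 to -0.73). The level of IL6ST relative to IL6R was accordingly 11.56 in si-Control, 11.05 after si-RBCK1 #1 and 5.51 after si-RBCK1 #2.

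STAT3 and SOCS3 were the members above si-Control in both libraries. STAT3 had 22.8 RPKM in si-Control, 39.1 RPKM after si-RBCK1 #1 and 35.3 RPKM after si-RBCK1 #2. The log2 ratios were 0.75 and 0.61, and 93.3% and 89.6% of all genes averaging 1 RPKM or more had a lower ratio in the respective library. SOCS3 had 26.8 RPKM in si-Control, 59.6 RPKM after si-RBCK1 #1 and 32.3 RPKM after si-RBCK1 #2. Its log2 ratio of 1.13 after si-RBCK1 #1 was higher than that of 98.1% of genes, whereas its 0.26 after si-RBCK1 #2 was higher than that of 69.9%. On reads the SOCS3 ratios were 1.16 (1.09 to 1.22) and 0.27 (0.20 to 0.35), and they differed by 0.88 (0.82 to 0.94). Those of STAT3 were 0.78 (0.72 to 0.83) and 0.63 (0.57 to 0.69), and they differed by 0.15 (0.10 to 0.20). The data are transcript levels, so phosphorylated STAT3 was not measured.

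**Figure D2:**
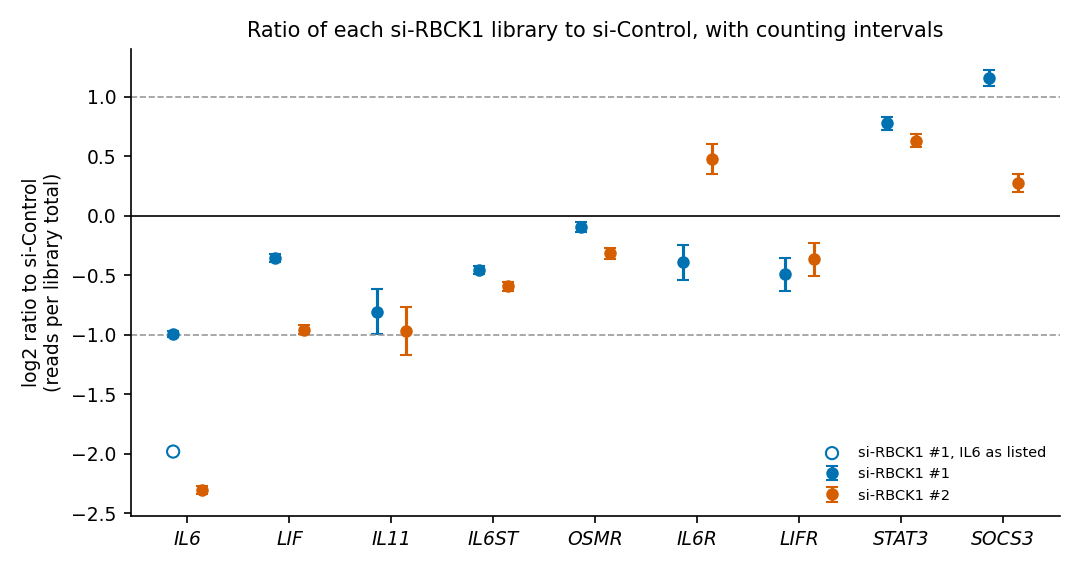
Log2 ratio of reads per library total, each si-RBCK1 library to si-Control, for the 9 genes, with 95% counting intervals as bars and 2-fold limits as dashed lines. The filled IL6 points use the implied value for si-RBCK1 #1, the open point its listed value, and IL6R has 1 point on each side of 0.

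By level in si-Control the order was IL6, LIF, IL6ST, OSMR, SOCS3, STAT3, IL11, IL6R and LIFR. With si-RBCK1 #1 it was IL6, LIF, SOCS3, STAT3, OSMR, IL6ST, IL11, IL6R and LIFR, and after si-RBCK1 #2 it was IL6, LIF, STAT3, SOCS3, OSMR, IL6ST, IL6R, IL11 and LIFR. STAT3 and SOCS3 lay below IL6ST and OSMR in si-Control and above them in both si-RBCK1 libraries. IL6R lay above IL11 after si-RBCK1 #2 only. Neighbours in these orders could not be set against a spread between replicates, since each condition had 1 library.

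All 9 genes passed the filter of a mean of at least 1 RPKM, as did 12403 genes of the table. In both si-RBCK1 libraries, 6 members were lower than si-Control (38.2% of all genes were), 2 were higher (43.3% of all genes were) and 1 differed in direction. At least 2-fold differences were seen for 2 members after si-RBCK1 #1, IL6 as listed and SOCS3, where 6.18% of all genes passed that limit. With si-RBCK1 #2, IL6 alone passed it, where 4.76% of all genes did. IL6 as listed passed it in both libraries in 1 direction, like 2.87% of all genes, and no member did so on the implied value, which lies just short of the limit. The median log2 ratio of the members was -0.33 after si-RBCK1 #1 and -0.31 after si-RBCK1 #2, against 0.02 and 0.03 over all genes. Since the members were chosen from these values, nothing is read from the counts.

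**Figure D3:**
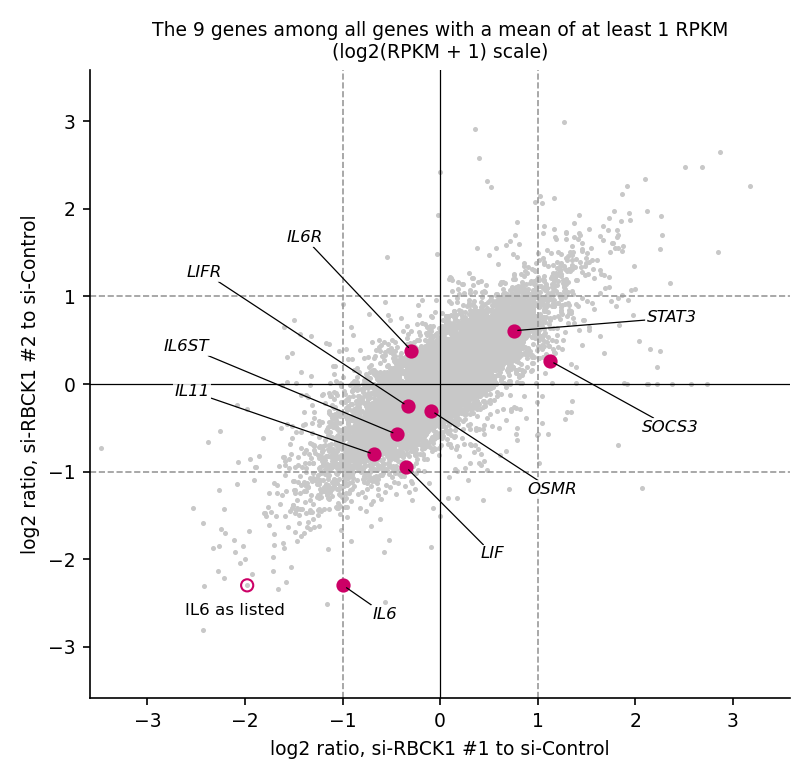
Log2 ratio of si-RBCK1 #2 to si-Control against that of si-RBCK1 #1 to si-Control for all 12403 genes averaging 1 RPKM or more (grey) and the 9 members (coloured), on the log2(RPKM + 1) scale, with 2-fold limits dashed. The shared control library enters both axes; IL6 lies at -2.30 on the vertical axis, STAT3 and SOCS3 lie at the upper right and IL6R at the upper left.

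The genes whose pair of log2 ratios lay nearest to that of IL11, out of 7750 protein-coding genes averaging 5 RPKM or more, were KLF11, CNBP, ADK, ARHGEF2 and BTG1. KLF11 was the closest, at a Euclidean distance of 0.0023, with 7.60 RPKM in si-Control, 4.38 RPKM after si-RBCK1 #1 and 3.93 RPKM after si-RBCK1 #2. Likeness over only 2 ratios that share a control library describes these libraries and nothing more.

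Genes around the members gave the following context. Of all genes that passed the filter, 43.3% were higher and 38.2% lower in both libraries, and 2.87% were 2-fold in both in 1 direction. These shares stand beside the counts of each list below. Of 17 other ligands and receptors of the family, 7 passed the filter, with medians of -0.11 and -0.16, of which 2 were higher and 4 lower in both libraries and none was 2-fold in both. OSM, the ligand of OSMR, was listed at 0 in all 3 libraries. IL11RA, the partner of IL11, was at 0.460, 0.488 and 0.663 RPKM, and CNTFR, the ciliary neurotrophic factor receptor, was at 0.0128, 0.0117 and 0.0130 RPKM. Of the chains that match the ligands among the members, LIFR and IL6R were thus above 1 RPKM in every library and IL11RA was below it. CLCF1, a further gp130 ligand, was at 25.4, 23.4 and 25.4 RPKM. CSF3, the granulocyte colony-stimulating factor, was at 1.99 RPKM in si-Control, 13.3 RPKM after si-RBCK1 #1 and 2.89 RPKM after si-RBCK1 #2. Its log2 ratios of 2.25 and 0.38 thus leaned to si-RBCK1 #1, as did those of SOCS3. The leptin receptor gene LEPR had log2 ratios of -0.33 and -0.30, and IL27RA, a receptor chain for IL-27, had 0.47 and 0.21.

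The list of JAK-STAT signalling held 17 genes, of which 14 passed, with medians of -0.38 and -0.21 and with 3 higher and 9 lower in both libraries. JAK1, the main kinase bound to gp130, was at 165 RPKM in si-Control, 114 RPKM after si-RBCK1 #1 and 107 RPKM after si-RBCK1 #2 (log2 ratios -0.54 and -0.63), close to the ratios of IL6ST. JAK2 had ratios of -0.44 and -0.37 and TYK2 had 0.12 and 0.12. On reads, the counting intervals of JAK1 and JAK2 lay below 0 with both siRNAs. Those of TYK2 were -0.03 to 0.29 and -0.03 to 0.30 on its smallest whole reads, at a length of 1416 nt. A true length that is a multiple of this would mean more reads and narrower intervals. Whether the TYK2 intervals include 0 is therefore not settled. YES1, a kinase of the Src family, had ratios of -0.88 and -0.74.

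The list of feedback inhibitors other than SOCS3 was broad, and also held phosphatases, PIAS proteins and the proteases ADAM10 and ADAM17. Its genes lay on both sides of si-Control. Of 18 genes 15 passed, with medians of -0.15 and -0.09, with 6 higher and 8 lower in both libraries and none 2-fold in both. PTPN2, a phosphatase of JAK and STAT proteins, had ratios of -0.50 and -0.69, and PTPN6, also known as SHP-1, had 0.52 and 0.59. ADAM10 is counted in this list but is a protease that sheds IL6R from the cell surface, not a feedback inhibitor. It had 36.8 RPKM in si-Control, 15.0 RPKM after si-RBCK1 #1 and 26.5 RPKM after si-RBCK1 #2.

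Among 46 target genes of STAT3, 31 passed, with medians of -0.01 and 0.07. The list was split, with 14 genes higher and 13 lower in both libraries (43.3% and 38.2% of all genes). As listed, 5 genes were 2-fold different in both, where 2.87% of all genes were. Nothing is read from these counts, since the lists were chosen with earlier results known. LCN2, encoding lipocalin 2, had 143 RPKM in si-Control, 23.8 RPKM after si-RBCK1 #1 and 52.9 RPKM after si-RBCK1 #2 (log2 ratios -2.54 and -1.42). The kinase PIM1 had ratios of -1.30 and -1.07, IRF1, an interferon-response factor, had -1.14 and -1.42, and the angiogenic factor VEGFA had -1.28 and -1.09. CCND1, encoding cyclin D1, was listed as higher, at 39.2, 98.5 and 88.9 RPKM, but these values, like those of IL6, do not give its own fold change. The implied values were 39.2, 58.5 and 48.9 RPKM, with ratios of 0.57 and 0.31, below the 2-fold limit. STAT3 itself was thus above si-Control while its listed targets lay on both sides. Many of these targets also answer to other factors.

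Regulators of IL6 mRNA, the transcription factors and RNA-binding proteins that set its synthesis and decay, numbered 25, and 23 passed, with medians of 0.12 and 0.14. Of these, 13 were higher and 5 lower in both libraries (43.3% and 38.2% of all genes), and none was 2-fold in both. NFKB1, the p50 subunit of NF-kB, had 27.7 RPKM in si-Control, 16.6 RPKM after si-RBCK1 #1 and 13.9 RPKM after si-RBCK1 #2 (log2 ratios -0.70 and -0.95). ATF3 had ratios of -0.64 and -0.86. ZC3H12A, encoding Regnase-1, an endonuclease that degrades IL6 mRNA, was above si-Control at 22.3, 42.8 and 35.0 RPKM (0.91 and 0.63). EGR1 could not be used, since the table gives no numeric value for it in si-Control. Proteins that act on IL6 mRNA often recognise AU-rich stretches. The heptamer TATTTAT was present after the coding sequence in 3 copies in IL6, 7 in IL11, 5 in LIF, 3 in OSMR, 2 in SOCS3 and 1 each in IL6ST and LIFR, and was absent from IL6R and STAT3. Of all genes, 30% had at least 1 copy.

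**Figure D4:**
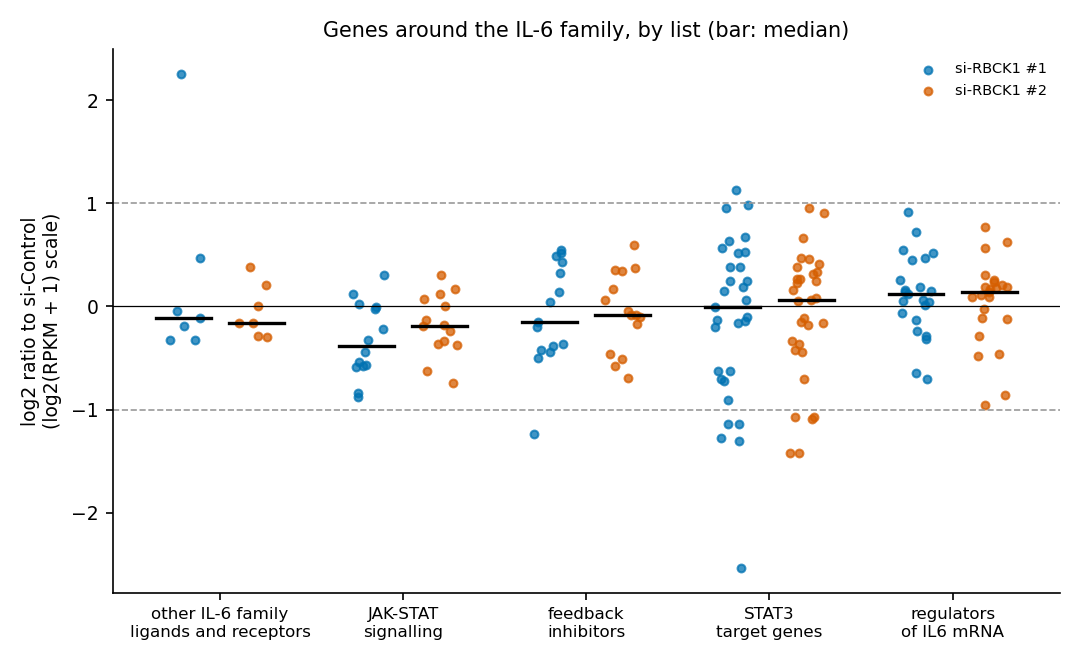
Log2 ratio to si-Control on the log2(RPKM + 1) scale for every gene that passed in the 5 lists around the IL-6 family, 1 point per gene and si-RBCK1 library, with the median of the points as a bar and 2-fold limits dashed. CCND1 is drawn at its implied value, as is any gene whose listed values fail in the same way; the list of STAT3 target genes spreads widest, with LCN2 lowest at -2.54.

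Several features of the libraries and loci bear on these values. The totals behind RPKM were 36926834, 40442939 and 36344428 reads for si-Control, si-RBCK1 #1 and si-RBCK1 #2, and 12473, 12263 and 12415 genes had at least 1 RPKM. Of 12 markers of renal epithelial and carcinoma cells 6 had a mean of at least 1 RPKM, among them PAX8, KRT8 and VIM, and 3 were under 0.1 RPKM in every library, CA9 among them. Their summed level was 1119 RPKM in si-Control and 2040 and 2035 RPKM with the siRNAs, mostly VIM. The sum hides a split, with VIM, KRT8 and KRT18 higher in both si-RBCK1 libraries. PAX8 (124 RPKM in si-Control, then 82.5 and 107 RPKM), MET and CDH2 were lower in both. Leukocyte markers, looked at because leukocytes express IL6R and SOCS3, summed to 41.9, 51.4 and 52.4 RPKM, nearly all CD68. Of these markers 5 of 7 were under 0.1 RPKM in every library, with CD3E at 0. The part of these shifts in the results was not tested. The labels name the Caki-1 cell line alone, so a mixture of cell types was not part of the design. In bulk RNA, fewer expressing cells and less RNA per cell cannot be told apart. IL6 (chr7:22766761-22771621 in hg19, plus strand) overlaps the lncRNA LOC541472 on the other strand, which had 1.55, 0.834 and 0.706 RPKM. LIF (chr22:30636436-30642840, minus strand) overlaps an antisense gene at 4.37, 5.34 and 6.04 RPKM. Whether counting used strand is not given in the sources used here, so reads of such pairs cannot be told apart if it did not. IL11 lies at chr19:55875750-55881831, IL6R at chr1:154377669-154441926, IL6ST at chr5:55230923-55290821, OSMR at chr5:38845960-38935743, LIFR at chr5:38475065-38595507, STAT3 at chr17:40465343-40540513 and SOCS3 at chr17:76352858-76356160.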

How the data were processed

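RNA of 3 Caki-1 libraries, depleted of ribosomal RNA, was sequenced, and the submitters' processing notes name hg19, TopHat2, FastQC, Trimmomatic and HTSeq. The authors deposited RPKM values per gene and library, together with the authors' own comparison (mean levels, log2 fold change, p-value and q-value). The deposited log2 fold change was used only to check that each gene's library values give it (tolerance 1e-06), and the other comparison columns were not used. Log2 ratios were computed after adding 1 RPKM, wherever the 3 libraries averaged at least 1 RPKM, and a 2-fold limit was applied. No p-value was computed, because each condition had 1 library.

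Library totals were found from the RPKM steps of RNAs of up to 200 nt, and each gene's smallest whole reads at a length of up to 50000 nt were then searched. The true reads of a gene may be a multiple of these, which would make its intervals narrower. Intervals (95%) are Clopper-Pearson, on reads. For IL6 and CCND1, whose listed values do not give their fold change, the implied values keep the control value and the listed decimals.

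The members and lists were chosen with earlier results of these data known, and the lists were written from general knowledge. Named genes of a list were those at least 2-fold different in both libraries or otherwise the 3 with the largest smaller ratio, plus direct partners of the members (JAK1, JAK2, TYK2, IL11RA, OSM, CNTFR and CLCF1). Alternatives were other pseudocounts, filters, scalings and fold limits, implied values and reads. Implied values outside the members were added after the data were seen. A gene of the JAK-STAT list is counted there but not reported here. The ratios and 2-fold calls, the recovery of reads, the implied values and the counting intervals were first tested on simulated data. The software was matplotlib 3.10.9, scipy 1.17.1, pandas 2.3.3 and numpy 2.4.6 under Python 3.11.15. Protein sequences and a LIF promoter were not used here.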

Additional observations from a re-analysis of the deposited data

Results flagged for a closer look

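IL6R was the member whose levels lay on opposite sides of si-Control, with a log2 ratio of -0.29 after si-RBCK1 #1 and 0.38 after si-RBCK1 #2. With 1 library per siRNA, the difference between them was not tested over replicates.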

How the results depend on the processing

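No paired analysis was possible because every condition was sequenced once, and no library could be left out. Of 92 alternative values of the members' log2 ratios, 30 were counted as moved and 0 changed sign. The signs say nothing about robustness, because nearly all of these settings could not reverse them. A ratio keeps its sign under another pseudocount, or on reads with none. The scalings shifted the ratios by less than the smallest of them, -0.09 for OSMR after si-RBCK1 #1. The counts of members at least 2-fold different were 2, 1 and 1 (si-RBCK1 #1, si-RBCK1 #2 and both). They became 4, 4 and 3 at a 1.5-fold limit. At a 4-fold limit the counts for si-RBCK1 #1 and for both became 0 and 0, with implied values 1 and 0, and without IL6 all counts became 1, 0 and 0. IL6 thus decides the count for both libraries. Genes 2-fold in both numbered 1 of the JAK-STAT list, and 2 at 1.5-fold, 0 at 4-fold and 0 with implied values, added after the data were seen. They numbered 5 of the STAT3 targets, and 3 with a pseudocount of 5 RPKM, 10 at 1.5-fold and 0 at 4-fold, and the regulators of IL6 mRNA had 3 at 1.5-fold. The median of the other family members after si-RBCK1 #2 turned to 0.00012 with a mean of at least 5 RPKM, and that of the STAT3 targets after si-RBCK1 #1 to 0.0035 with no filter. The share of all genes at least 2-fold different (si-RBCK1 #1, si-RBCK1 #2, both) was 10.9%, 8.75% and 5.43% with a pseudocount of 0.1 RPKM. It was 1.77%, 1.596% and 1.01% with 5 RPKM and 2.09%, 1.59% and 0.897% with no filter. At 1.5-fold it was 23.7%, 20.6% and 13.7%, and at 4-fold 0.379%, 0.25% and 0.0887%. The reads behind IL11, IL6R and LIFR, 301 to 1153 per library, give them the widest counting intervals of the members.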
